A study of Rattus norvegicus with 26 samples.

Results

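Collagens and the enzymes that build them were followed while rat multipotent adult progenitor cells (rMAPCs) were turned toward smooth muscle. The members were the probes for genes whose array name starts with Col, a number, a and another number, together with 17 listed enzymes and chaperones of collagen processing, and each gene was read from its brightest probe. Of 35287 gene names on the array, 50 were members: 34 collagens, 15 enzymes or chaperones, and *Col4a3bp*, which has the name pattern but codes for a ceramide transfer protein and is counted apart. *Pcolce2* and *Colgalt1* had no probe under those names.

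The series profiled clones Cl19 (Cl-19 in the labels) and 3c3, which express Oct4 and are labelled as bone marrow derived, from female rats of the Fischer strain. The donor age differs: 3 weeks after birth for Cl19 and embryonic day 18 for 3c3. Each clone is a single line, so clone and donor age cannot be told apart in any difference between them. The cells were kept for 6 days in basal rMAPC medium with TGF-β and PDGF-BB, and RNA was taken on d0, d2, d4 and d6 with 3 replicates per line and day. The comparison cells were primary smooth muscle cells (SMCs), as commercial RNA on 2 arrays. The labels call it rat aortic RNA, a figure legend has it from cultured aortic SMCs, and labels and methods name different suppliers, which cannot be settled here. The 2 arrays may be repeat runs of 1 RNA, while the tests take them as 2 replicates. Their median standard deviation over the tested members was 0.032, against 0.2 to 0.55 in the other groups. All 26 samples were read on one-colour Agilent arrays, as bulk RNA.

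Collagens are triple-helical proteins of the extracellular matrix. Fibrillar types such as I, III and V give the wall of arteries its tensile strength and are made there mainly by smooth muscle and adventitial cells, while type IV forms the network of basement membranes. New chains are hydroxylated on proline and lysine and folded with a dedicated chaperone in the endoplasmic reticulum, then trimmed of their propeptides outside the cell and cross-linked by lysyl oxidases.

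Values are log2 of the processed signal after quantile normalization over the 26 arrays, and replicates are given in the order 1, 2 and 3. A change is a difference of group means from 1 limma fit over all 9 groups, with its standard error (SE) and a p-value adjusted over the 24442 gene probes tested. A probe counts as measured on an array when its signal was well above background by the scanner software, and 52.75 to 61.36% of gene features were so in Cl19, 43.23 to 57.12% in 3c3 and 43.59 to 44.52% in primary SMCs. Where a probe was not well above background on each array of 1 of the 2 groups, only a lower bound of the fold is given. Folds and their bounds hold for this processing only, and many were smaller after normexp background correction. Levels of different genes come from different probes and are not compared.

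Some arrays stood apart from the rest of their group. The array labelled Cl19 d2 replicate 1 lay nearer to the 3c3 d2 arrays than to its own group: its root mean square log2 difference over the tested probes was 0.382, 0.538 and 0.428 to the 3c3 d2 arrays, against 0.917 and 0.876 to the other Cl19 d2 arrays. Over the tested members the same distances were 0.444, 0.44 and 0.43 against 1.36 and 1.34. *Col9a3* shows it for a single gene, with 3.81 on that array, 6.87 and 6.64 on the other Cl19 d2 arrays, and 3.83, 3.73 and 3.95 in 3c3 on d2. Counts that use Cl19 d2, and the tested d2 values of single genes, are therefore given with and without that array. The 4 arrays of 3c3 replicate 3 had a negative-control signal of 28.3 to 44.5, against 10.9 to 14 on the other 22 arrays. Each slide held d0, d2, d4 and d6 of 1 replicate of 1 line, and the primary SMC arrays had a slide and a scan day of their own, so for levels the cell source and the scan day cannot be told apart.

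Of the 50 members, 43 passed the filter and were tested: 27 collagens, all 15 enzymes and chaperones, and *Col4a3bp*. The filter asked for a signal well above background on each array of at least 1 group. Of the 49 collagens and enzymes, 15 were well above background on all 26 arrays and 4 on no array. The collagens *Col11a1*, *Col24a1*, *Col4a4*, *Col6a3*, *Col9a1*, *Col22a1* and *Col17a1* were not tested. Counts below are of the 42 collagens and enzymes tested.

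Collagen genes and their enzymes changed in both lines within 6 days, in 3c3 at about the share of all probes. In Cl19, 30 of 42 members changed over time (54.3% of all tested probes did), 20 collagens and 10 enzymes. For 3c3 the count was 20 (50% of all tested probes), 12 collagens and 8 enzymes, and 18 members changed in both lines (38.7%). Without Cl19 d2 replicate 1 it was 31 in Cl19 and 18 in both. Whether the lines differ in these counts was not tested. Without the 4 arrays of 3c3 replicate 3, 12 members changed in 3c3 and 11 in both lines. The area method of the study, with its threshold at the 99th percentile, gave 18 in Cl19, 9 in 3c3 and 9 in both. In bulk RNA, more or fewer cells making a transcript and more or less transcript per cell cannot be told apart, here and in what follows.

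By d6, 18 members were higher than on d0 in Cl19 (22.0% of all tested probes) and 11 were lower (30.3%). In 3c3, 12 were higher (19.7%) and 2 were lower (28.6%). The members' median log2 change was 0.428 in Cl19 and 0.028 in 3c3, while the median over all tested probes was -0.199 and -0.207. That median depends on the scaling: it was 0.097 and 0.088 in the authors' table, which is not normalized between arrays, and -0.059 and -0.064 after normexp background correction. Scaled by the 75th percentile of each array, 3c3 had 10 members higher and 4 lower. Shared by both lines were 9 members that rose (13.2%), namely *Col1a1*, *Col2a1*, *Col5a1*, *Col11a2*, *Col7a1*, *Col16a1*, *Col23a1*, *Bmp1* and *Loxl3*, and 2 that fell (20.4%), *Col5a3* and *Col4a3*. *Col2a1*, *Col8a2* and *Col23a1* were tested only because treated rMAPC groups measured them, as no d0 or primary SMC array did. They could enter as rises from d0 alone. No excess of rises is therefore read from these counts, from those of other days or from the members' medians. Both lines are compared with their own d0 arrays.

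Among the fibrillar collagens, 7 of 9 tested members rose and 1 fell by d6 in Cl19, and 4 rose and 1 fell in 3c3. For these and the later d6 counts by role, 22.0% of all tested probes rose and 30.3% fell in Cl19, against 19.7% and 28.6% for 3c3. *Col1a1*, the chain that fills 2 of the 3 places in the main collagen of the arterial wall, rose steeply. Its log2 signal in Cl19 was 6.06, 5.80 and 6.12 on d0, 6.06, 8.18 and 8.31 on d2, 10.86, 12.31 and 12.45 on d4, and 13.00, 13.74 and 13.04 on d6. For 3c3 it read 6.16, 5.51 and 6.35 on d0, 6.06, 5.77 and 6.33 on d2, 7.37, 6.31 and 7.53 on d4, and 10.78, 8.34 and 9.48 on d6. Cl19 thus climbed from d4 on to levels above each 3c3 array, 3c3 followed on d6, and in neither line did d0 and d6 overlap. The d6 change was 7.27 (SE 0.581, adjusted p = 5.1e-09) in Cl19, or 154-fold. It was 3.53 (adjusted p = 5.6e-05) in 3c3, or 11.5-fold. The rise was larger in Cl19 by 3.74 (SE 0.822, adjusted p = 0.0029). The other *Col1a1* probes gave 6.23 and 11.56 in Cl19 and 2.48 and 7.81 in 3c3.

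*Col1a2*, the partner chain of type I, stayed dim. It read 2.68, 3.11 and 3.23 on d0 and 4.66, 5.18 and 4.10 on d6 in Cl19, and 3.02, 2.65 and 3.10 on d0 and 2.36, 3.02 and 3.49 on d6 in 3c3. All d6 arrays of Cl19 lay above its d0 arrays, whereas the 3c3 days overlapped. The Cl19 change was 1.64 (SE 0.414, adjusted p = 0.0024), at least 3.08-fold, and the 3c3 change was 0.03 (adjusted p = 0.96). The lines differed by 1.60 with an adjusted p of 0.067, which was 0.044 with the slide of each replicate as a block in the fit. A dimmer second probe gave -1.26 in 3c3 (adjusted p = 0.013).

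*Col3a1*, the type III chain of distensible tissues such as arteries, was not switched on in either line. Its signal ranged from 0.43 to 2.66 over the 24 rMAPC arrays and was well above background on 1 of them, of Cl19 on d2. The d6 change was -0.10 (adjusted p = 0.9) in Cl19 and had an adjusted p of 0.23 in 3c3.

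*Col2a1*, the main collagen of cartilage, rose in both lines from a level too low to measure. All d0 arrays were at background, with 1.81, 0.40 and 0.80 in Cl19 and 2.18, 2.56 and 2.81 in 3c3. In Cl19 it then reached 2.80, 5.12 and 6.14 on d2, 7.78, 9.84 and 8.88 on d4, and 8.73, 9.62 and 9.49 on d6. In 3c3 it reached 6.30, 4.41 and 5.24 on d6. All d6 arrays of both lines lay above all d0 arrays, and those of Cl19 above those of 3c3. The change was 8.28 (SE 0.804, adjusted p = 6.2e-08) in Cl19, at least 121-fold, and 2.80 (adjusted p = 0.0072) in 3c3, at least 6.02-fold. After normexp background correction the Cl19 change was 3.31 and the 3c3 change was 0.55 (adjusted p = 0.15), so these folds hold for the reported processing only. The rise was called larger in Cl19, but with d0 at background in both lines its size is not exact: 5.48 (SE 1.137, adjusted p = 0.0018), or 4.33 (adjusted p = 0.0019) with the floor. These values are from the brightest probe. A second probe, well above background on 4 arrays and not tested, showed no such rise. It read 1.76 to 1.93 on d0 and 1.61 to 2.15 on d6 in Cl19, and 0.92 to 2.09 and 0.727 to 1.805 in 3c3. With the mean of both probes the line difference was 2.715.

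Other fibrillar chains known from cartilage were weaker. *Col11a2*, a chain of type XI, rose by 2.02 in Cl19 (adjusted p = 0.00028), at least 4.07-fold, and by 1.26 in 3c3 (adjusted p = 0.014), where leaving out d0 replicate 2 gave 1.01 with an adjusted p of 0.073. *Col27a1*, the type XXVII chain, rose by 2.19 in Cl19 (adjusted p = 0.0037), at least 2.66-fold, and had an adjusted p of 0.31 in 3c3. Its line difference of 2.94 (adjusted p = 0.017) was 2.25 (adjusted p = 0.053) without Cl19 d0 replicate 1 and 0.32 (adjusted p = 0.091) after normexp. *Sox9*, the transcription factor of cartilage cells, changed by 0.00 (adjusted p = 1) in Cl19 and 0.28 (adjusted p = 0.36) in 3c3.

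The 3 chains of type V, the collagen that starts and limits the growth of type I fibrils, moved in different ways. *Col5a1* rose in both lines from the first days. It read 9.37, 9.37 and 9.58 on d0, 10.82, 11.99 and 11.65 on d2 and 12.79, 13.36 and 13.00 on d6 in Cl19. In 3c3 it read 8.23, 8.28 and 8.61 on d0, 11.10, 10.61 and 11.02 on d2 and 12.87, 13.10 and 13.00 on d6. The lines started apart, overlapped on d6, and in each the d2 and d6 arrays lay above all d0 arrays. The d6 change was 3.61 (SE 0.255, adjusted p = 1e-09) in Cl19, 12.2-fold, and 4.62 (adjusted p = 7.6e-11) in 3c3, 24.5-fold. The difference of -1.01 (SE 0.36) had an adjusted p of 0.061, which was 0.023 with the slide as a block and 0.018 when arrays were scaled by their 75th percentile.

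*Col5a3*, the chain best known from the placenta, went the other way. In Cl19 it fell from 9.46, 9.10 and 9.33 on d0 to 8.01, 4.98 and 5.67 on d2, 3.85, 3.02 and 2.92 on d4, and 2.79, 2.33 and 1.90 on d6. The 3c3 arrays went from 9.94, 10.20 and 10.22 on d0 to 7.54, 7.67 and 7.50 on d2, 6.92, 7.0 and 7.34 on d4, and 5.25, 4.76 and 5.63 on d6. From d2 on every array of either line was below its d0 arrays. The change was -6.95 (SE 0.484, adjusted p = 8.7e-10) in Cl19, at least 124-fold lower, and -4.91 (adjusted p = 1.4e-07) in 3c3, 30-fold lower. After normexp these changes were -3.094 and -3.303, so the folds hold for the reported processing only. The line difference of -2.04 (adjusted p = 0.045) had an adjusted p between 0.05 and 0.11 when any 1 of 19 arrays was left out, was -1.90 (adjusted p = 0.06) with the 75th percentile scaling, and was 0.21 (adjusted p = 0.82) after normexp.

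*Col5a2*, the third chain, appeared late and in Cl19. It read 0.45, 0.40 and 0.40 on d0, 0.39, 0.43 and 0.36 on d4 and 2.87, 6.16 and 4.59 on d6 there, against 0.39, 0.40 and 0.52 on d0 and 0.35, 0.35 and 0.59 on d6 in 3c3. A signal well above background was found on all 3 Cl19 d6 arrays and no other rMAPC array. The Cl19 change was 4.13 (SE 0.549, adjusted p = 3.3e-06), at least 4.54-fold, the 3c3 change was -0.01 (adjusted p = 0.99), and the lines differed by 4.13 (SE 0.776, adjusted p = 0.00077). With each array floored at its lowest signal well above background, that difference was 2.02 (adjusted p = 0.14). Its neighbour on the chromosome, *Col3a1*, was one of the genes that did not pass the test.

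**Figure D1:**
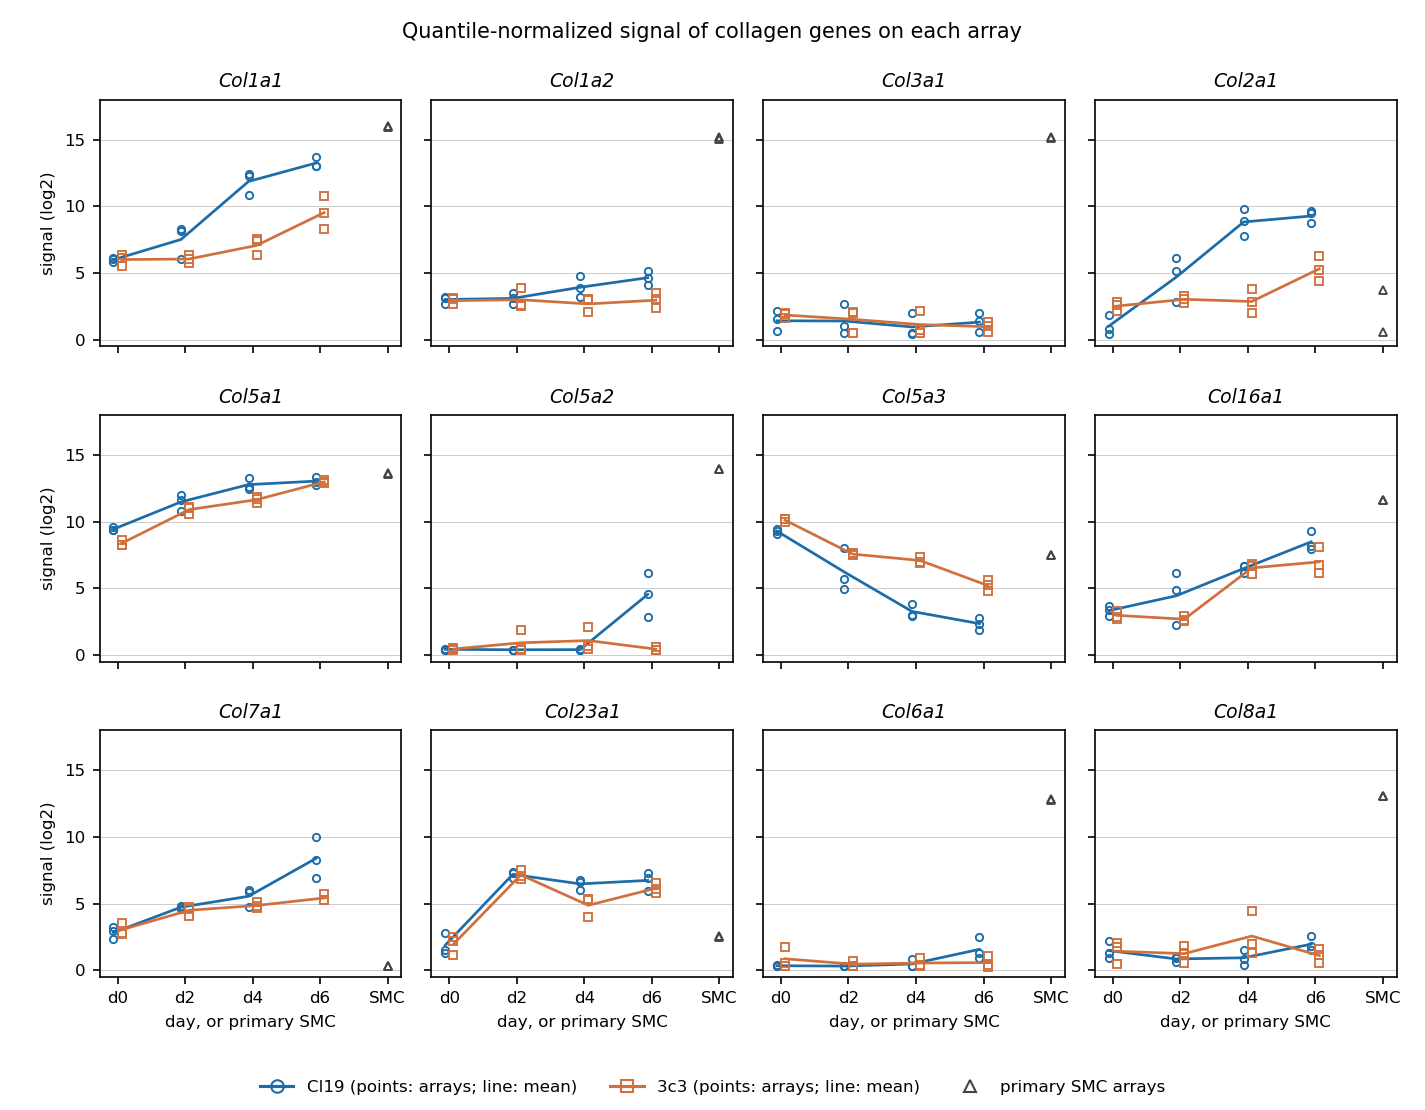
Log2 processed signal of 12 collagen genes against day of treatment (d0, d2, d4 and d6), with a point for each array of Cl19 and 3c3, lines through the means of 3 arrays, and triangles for the 2 primary SMC arrays. *Col1a1*, *Col2a1*, *Col5a1*, *Col16a1*, *Col7a1* and *Col23a1* climb in both lines and *Col5a3* drops, while *Col1a2*, *Col3a1*, *Col5a2*, *Col6a1* and *Col8a1* reach high signal in primary SMCs; with normexp the *Col2a1* and *Col7a1* rises in 3c3 have an adjusted p of 0.15 and 0.13.

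Basement membrane collagen fell in Cl19, where 3 of 4 tested chains were lower by d6 (30.3% of all tested probes were); in 3c3 1 was lower (28.6%). *Col4a1* and *Col4a2* form the type IV network found under nearly all epithelia and around smooth muscle cells. *Col4a1* read 16.68, 16.74 and 16.80 on d0, 16.30, 15.62 and 15.88 on d2, 15.53, 14.88 and 15.17 on d4 and 13.84, 14.45 and 14.74 on d6 in Cl19. The 3c3 arrays read 16.65, 16.44 and 16.57 on d0 and 16.27, 16.27 and 16.34 on d6. The Cl19 arrays went down at each day sampled and ended below all 3c3 arrays. The change was -2.40 (SE 0.194, adjusted p = 6e-09) in Cl19, 5.27-fold lower, and -0.26 (adjusted p = 0.3) in 3c3, a difference of -2.14 (SE 0.275, adjusted p = 1.8e-05).

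*Col4a2* was similar, at 13.47, 13.33 and 13.55 on d0 and 10.43, 11.22 and 11.13 on d6 in Cl19, against 13.34, 13.11 and 13.35 on d0 and 13.07, 13.16 and 13.29 on d6 in 3c3. Cl19 alone separated its d0 from its d6 arrays. The change was -2.52 (SE 0.242, adjusted p = 5.6e-08) in Cl19, 5.74-fold lower, and -0.09 (adjusted p = 0.79) in 3c3, a difference of -2.43 (SE 0.343, adjusted p = 4.9e-05). *Col4a3*, a chain of the kidney and lung network, was near background from the start and passed the test as lower in both lines, at least 2.17-fold in Cl19 (adjusted p = 0.00029) and with no fold to give in 3c3 (adjusted p = 2.7e-07), where not all arrays of either day were measured. The authors' table gave -1.02 (adjusted p = 0.12) for Cl19, and with a floor at the lowest measured signal the 3c3 change was -0.73 (adjusted p = 0.2). Its line difference of 1.35 (adjusted p = 0.028) was not past the threshold under the 75th percentile (adjusted p = 0.38), normexp (0.65) or the authors' table (0.41), or without any 1 of 6 arrays. *Col4a5* changed by 0.18 in Cl19 (adjusted p = 0.67) and had an adjusted p of 0.65 in 3c3. A second probe of *Col4a5*, with the lower mean over all arrays, rose by 3.61 in Cl19 (adjusted p = 1.2e-07) from d0 arrays at background. On d6 in Cl19 that probe read 4.30 to 5.02, and the chosen one 2.67 to 3.25. In 3c3 its change had an adjusted p of 0.17.

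The multiplexins, collagens of the basement membrane zone with interrupted helices, split between the lines. *Col18a1*, the source of endostatin, read 8.91, 9.05 and 9.28 on d0, 11.97, 11.45 and 11.71 on d2, 12.12, 10.74 and 11.23 on d4 and 8.81, 9.51 and 10.05 on d6 in Cl19. In 3c3 it read 8.20, 8.57 and 8.78 on d0, 12.20, 12.07 and 12.23 on d2, 12.07, 12.22 and 12.38 on d4 and 12.57, 12.77 and 12.95 on d6. Both lines rose by d2; Cl19 then came back near its d0 level while 3c3 stayed high. The d2 change was 2.63 (adjusted p = 1.9e-06) in Cl19, 2.50 (adjusted p = 1.3e-05) without replicate 1, and 3.65 (adjusted p = 4.2e-08) in 3c3. By d6 it was 0.37 (adjusted p = 0.3) in Cl19 and 4.25 (SE 0.292, adjusted p = 1.3e-09) in 3c3, 19-fold, a difference of -3.87 (SE 0.412, adjusted p = 2.3e-06). A second probe gave 0.34 and 4.20.

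*Col15a1*, the other multiplexin, showed the opposite split. It read 3.41, 3.33 and 2.67 on d0 and 6.42, 6.28 and 5.82 on d6 in Cl19, and 3.57, 3.39 and 3.73 on d0 and 4.42, 4.29 and 3.80 on d6 in 3c3. The Cl19 d6 arrays lay above all other arrays just given. Its change was 3.04 (SE 0.314, adjusted p = 1.4e-07) in Cl19, 8.19-fold, and 0.61 (adjusted p = 0.12) in 3c3, where the authors' table gave 1.05 (adjusted p = 0.019). The lines differed by 2.43 (SE 0.444, adjusted p = 0.00061).

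Several non-fibrillar collagens rose in both lines. *Col7a1*, the anchoring fibril collagen below the epidermis, read 3.24, 2.30 and 2.91 on d0 and 6.90, 9.98 and 8.31 on d6 in Cl19, and 2.81, 2.75 and 3.54 on d0 and 5.70, 5.26 and 5.30 on d6 in 3c3. All d6 arrays lay above all d0 arrays, with Cl19 the higher line. It rose by 5.58 (SE 0.502, adjusted p = 2.3e-08) in Cl19, at least 47.8-fold, and by 2.39 (adjusted p = 0.00062) in 3c3, 5.23-fold. Normexp gave 2.565 for Cl19 and 0.67 (adjusted p = 0.13) for 3c3, so the folds hold for the reported processing only. The line difference was 3.19 (SE 0.71, adjusted p = 0.0032).

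*Col16a1*, which sits on the surface of fibrils, read 2.93, 3.67 and 3.34 on d0, 2.27, 4.88 and 6.15 on d2 and 7.93, 9.34 and 8.20 on d6 in Cl19. The 3c3 values were 3.32, 2.88 and 2.71 on d0, 6.70, 6.05 and 6.84 on d4 and 8.09, 6.12 and 6.74 on d6. Both lines ended above their d0 arrays. The changes of 5.17 (SE 0.651, adjusted p = 1.7e-06), 36.1-fold, in Cl19 and 4.02 (adjusted p = 4.7e-05), at least 14.6-fold, in 3c3 differed with an adjusted p of 0.49.

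*Col23a1*, a collagen that spans the cell membrane, rose in both lines by d2. It went from 2.79, 1.28 and 1.54 on d0 to 7.34, 7.28 and 6.95 on d2 in Cl19, and from 1.13, 2.48 and 2.20 to 7.52, 6.86 and 7.08 in 3c3. On this probe all d0 arrays were at background, and the d2 arrays of the lines overlapped. The d2 change was 5.32 (adjusted p = 6.1e-08) in Cl19, 5.24 (adjusted p = 3.1e-07) without replicate 1, and 5.21 (adjusted p = 8.7e-08) in 3c3. On d6 it read 7.32, 5.94 and 6.96 in Cl19 and 6.58, 5.81 and 6.08 in 3c3, a change of 4.87 (adjusted p = 2.5e-08), at least 20.5-fold, and 4.22 (adjusted p = 2.9e-07), at least 11-fold. After normexp these changes were 1.336 and 1.011, so the bounds hold for the reported processing only. A second probe gave 3.65 (adjusted p = 1.4e-05) and 2.17 (adjusted p = 0.0029), and was well above background on 1 d0 array of 3c3. The d6 changes differed with an adjusted p of 0.59.

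Further collagens passed the test by d6 in Cl19. *Col8a2*, a chain of the short-chain network, was at background on all d0 arrays and by d6 had reached 5.71, 5.60 and 5.43 in Cl19, against 3.96, 2.53 and 3.04 in 3c3. The Cl19 arrays lay above the 3c3 arrays. It rose by 4.06 (SE 0.526, adjusted p = 2.4e-06) in Cl19, at least 9.30-fold, and the 3c3 change was 0.83 (adjusted p = 0.21), a difference of 3.23 (SE 0.744, adjusted p = 0.0041). The authors' table gave 1.21 (adjusted p = 0.026) for 3c3. *Col9a3*, a chain of the fibril-associated type IX, fell by 2.11 (adjusted p = 0.0019) in Cl19, 4.31-fold, and the 3c3 change was -1.10 (adjusted p = 0.087), a difference with an adjusted p of 0.43. It was lower in 3c3 on d4, at -1.92 (adjusted p = 0.0064), or -1.40 (adjusted p = 0.077) in the authors' table and -1.95 (adjusted p = 0.059) without the slide of replicate 3. *Col6a1*, of the beaded filaments around cells, passed the test in Cl19 with 1.23 (adjusted p = 0.0059), but was well above background on 1 d6 array, replicate 2, at 2.50. Without that array its change was 0.77 (adjusted p = 0.058), with normexp 0.08 (adjusted p = 0.2), with the 75th percentile 1.40 (adjusted p = 0.056), and with the floor -0.10 (adjusted p = 0.87). *Col6a2*, *Col8a1*, *Col9a2*, *Col10a1*, *Col14a1* and *Col20a1* did not pass the test on d6 in either line.

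Most enzymes that act on new chains inside the cell and were called by d6 in Cl19 fell, and *P4ha3* alone was called higher. Of the 4 tested members of proline hydroxylation, 2 fell and 1 rose in Cl19 by d6. *Leprel1*, prolyl 3-hydroxylase 2, which modifies basement membrane collagen, read 10.02, 10.37 and 10.22 on d0, 8.69, 7.70 and 7.92 on d2, 4.91, 4.49 and 4.55 on d4 and 3.5, 5.76 and 4.18 on d6 in Cl19. In 3c3 it read 9.35, 9.87 and 9.5 on d0 and 8.59, 9.59 and 9.39 on d6. The Cl19 arrays left the range of 3c3 by d4 and stayed low. The change was -5.73 (SE 0.398, adjusted p = 8.6e-10) in Cl19, 52.9-fold lower, and -0.38 (adjusted p = 0.46) in 3c3, a difference of -5.34 (SE 0.563, adjusted p = 2e-06).

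*P4hb*, the shared subunit of prolyl 4-hydroxylase and a disulfide isomerase, read 15.45, 15.44 and 15.62 on d0 and 14.41, 14.46 and 14.67 on d6 in Cl19, and 15.22, 15.52 and 15.62 on d0 and 15.01, 15.21 and 15.47 on d6 in 3c3. It fell in Cl19, where the days did not overlap, by 0.99 (SE 0.162, adjusted p = 3.9e-05), 1.98-fold. The 3c3 change was -0.22 (adjusted p = 0.28), or -0.58 (adjusted p = 0.011) with the 75th percentile scaling. The line difference of -0.76 (adjusted p = 0.024) had an adjusted p of 0.071 with that scaling and 0.056 in the authors' table, and 0.06 to 0.076 without any 1 of 4 arrays. *P4ha3*, a catalytic subunit, passed the test in Cl19 with 2.03 (adjusted p = 0.0065), from 1.66, 1.15 and 0.93 on d0 to 1.84, 5.05 and 2.96 on d6. Without d6 replicate 2 that change was 1.15 (adjusted p = 0.062), and with normexp 0.24 (adjusted p = 0.06). A second probe, dim on all rMAPC arrays, gave 0.12 (adjusted p = 0.81). *P4ha2*, another catalytic subunit, had an adjusted p of 0.081 in Cl19, 0.02 with the slide as a block, and 0.78 in 3c3.

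Lysyl hydroxylases prepare the sites of cross-links and sugars, and 2 of the 3 fell in Cl19. *Plod1* read 13.57, 13.65 and 13.82 on d0 and 12.76, 12.87 and 13.13 on d6 in Cl19, and 13.04, 13.01 and 13.09 on d0 and 13.35, 13.57 and 13.65 on d6 in 3c3. It fell by 0.76 (SE 0.143, adjusted p = 0.00016) in Cl19 and rose by 0.48 (adjusted p = 0.0094) in 3c3, where a second probe gave 0.23 (adjusted p = 0.25). *Plod3* fell by 0.95 (SE 0.175, adjusted p = 0.00013) in Cl19 and rose by 0.53 (adjusted p = 0.017) in 3c3. Neither rise in 3c3 was past the threshold with the 75th percentile scaling, at 0.12 (adjusted p = 0.57) for *Plod1* and 0.14 (adjusted p = 0.56) for *Plod3*, or without the slide of replicate 3, at 0.43 for each (adjusted p = 0.088 and 0.16). For *Plod3* the adjusted p was also 0.055 to 0.083 without any 1 of 3 arrays, namely 3c3 d0 replicate 2 and d6 replicates 2 and 3. The line differences were -1.24 (SE 0.202, adjusted p = 0.00021) for *Plod1* and -1.48 (SE 0.248, adjusted p = 0.00027) for *Plod3*. *Plod2*, which acts on the ends of fibrillar chains, did not pass in either line: -1.50 in Cl19 with an adjusted p of 0.058, which was 0.033 with the slide as a block, and 0.21 (adjusted p = 0.81) in 3c3.

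*Serpinh1* codes for HSP47, the chaperone dedicated to procollagen. It read 16.79, 16.73 and 16.78 on d0, 16.22, 15.71 and 16.07 on d2, 15.44, 15.33 and 15.44 on d4 and 15.24, 15.19 and 15.50 on d6 in Cl19. In 3c3 the signal was 16.43, 16.51 and 16.70 on d0 and 16.23, 16.12 and 16.43 on d6. Each later array of Cl19 was below its d0 arrays. The change was -1.46 (SE 0.146, adjusted p = 9.8e-08) in Cl19, 2.74-fold lower. In 3c3 it was -0.29 (adjusted p = 0.11), with an adjusted p of 0.036 with the slide as a block, and -0.54 (adjusted p = 0.024) with the 75th percentile scaling. The lines differed by -1.16 (SE 0.207, adjusted p = 0.00047).

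Propeptide trimming was split between an enzyme that rose and its enhancer. *Bmp1*, the procollagen C-proteinase, read 12.40, 12.32 and 12.48 on d0 and 12.55, 13.56 and 13.51 on d6 in Cl19, and 11.86, 11.50 and 11.77 on d0 and 14.51, 13.99 and 14.10 on d6 in 3c3. All 3c3 d6 arrays lay above these Cl19 arrays. It rose by 2.49 (adjusted p = 5.6e-08) in 3c3, 5.62-fold, and by 0.81 (SE 0.229, adjusted p = 0.0059) in Cl19, 1.75-fold, where the 75th percentile scaling gave 0.47 (adjusted p = 0.075). The difference was -1.69 (SE 0.324, adjusted p = 0.00093). *Pcolce*, which speeds that cleavage, read 10.21, 10.02 and 10.28 on d0, 8.14, 7.98 and 7.82 on d2 and 8.74, 9.55 and 8.67 on d6 in Cl19, and 10.04, 9.54 and 9.52, then 8.14, 7.66 and 8.14, and then 9.94, 9.66 and 9.83 on those days in 3c3. Both lines dipped on d2 and 3c3 came back to its d0 range. The d6 change was -1.19 (SE 0.244, adjusted p = 0.0004) in Cl19, 2.27-fold lower, and 0.11 (adjusted p = 0.75) in 3c3, a difference of -1.29 (adjusted p = 0.012) that had an adjusted p of 0.077 without the slide of 3c3 replicate 3.

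Of the 5 cross-linking enzymes, 3 rose in Cl19 (22.0% of all tested probes did) and 1 in 3c3 (19.7%) by d6. *Loxl1*, the lysyl oxidase tied to elastic fibres, read 4.94, 4.67 and 4.90 on d0, 1.59, 5.38 and 5.09 on d2, 6.74, 8.24 and 9.54 on d4 and 10.36, 12.28 and 10.82 on d6 in Cl19. In 3c3 it read 3.51, 2.21 and 2.69 on d0 and 5.12, 4.07 and 4.33 on d6. Cl19 from d4 on lay above all 3c3 arrays of d0 and d6. The change was 6.32 (SE 0.806, adjusted p = 2e-06) in Cl19, 79.9-fold. In 3c3 it was 1.70 (adjusted p = 0.09), with an adjusted p of 0.034 with the slide as a block, and a second probe there gave 2.04 (adjusted p = 0.017). The lines differed by 4.62 (SE 1.14, adjusted p = 0.007). *Lox*, the founding lysyl oxidase, stayed at the floor of the array. A signal well above background was seen on 1 of 24 rMAPC arrays, Cl19 d6 replicate 2, at 2.37. The d6 change of *Lox* had an adjusted p of 0.18 in Cl19 and 0.97 in 3c3. Its Cl19 change was labelled stronger under 2 of 35 alternatives, and the lowest adjusted p was 0.034. *Loxl3* rose by 2.38 (adjusted p = 4.1e-05) in Cl19, at least 2.51-fold, and by 1.59 (adjusted p = 0.0024) in 3c3, where it was 1.14 (adjusted p = 0.084) without the slide of replicate 3. *Loxl4* rose by 1.3 in Cl19 (adjusted p = 0.021), with an adjusted p of 0.053 to 0.072 without any 1 of 4 Cl19 arrays, replicates 1 and 2 of d0 and 2 and 3 of d6. *Loxl2*, an oxidase that cross-links type IV, had an adjusted p of 0.29 in Cl19 and 0.1 in 3c3, or 0.042 in 3c3 with the slide as a block.

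**Figure D2:**
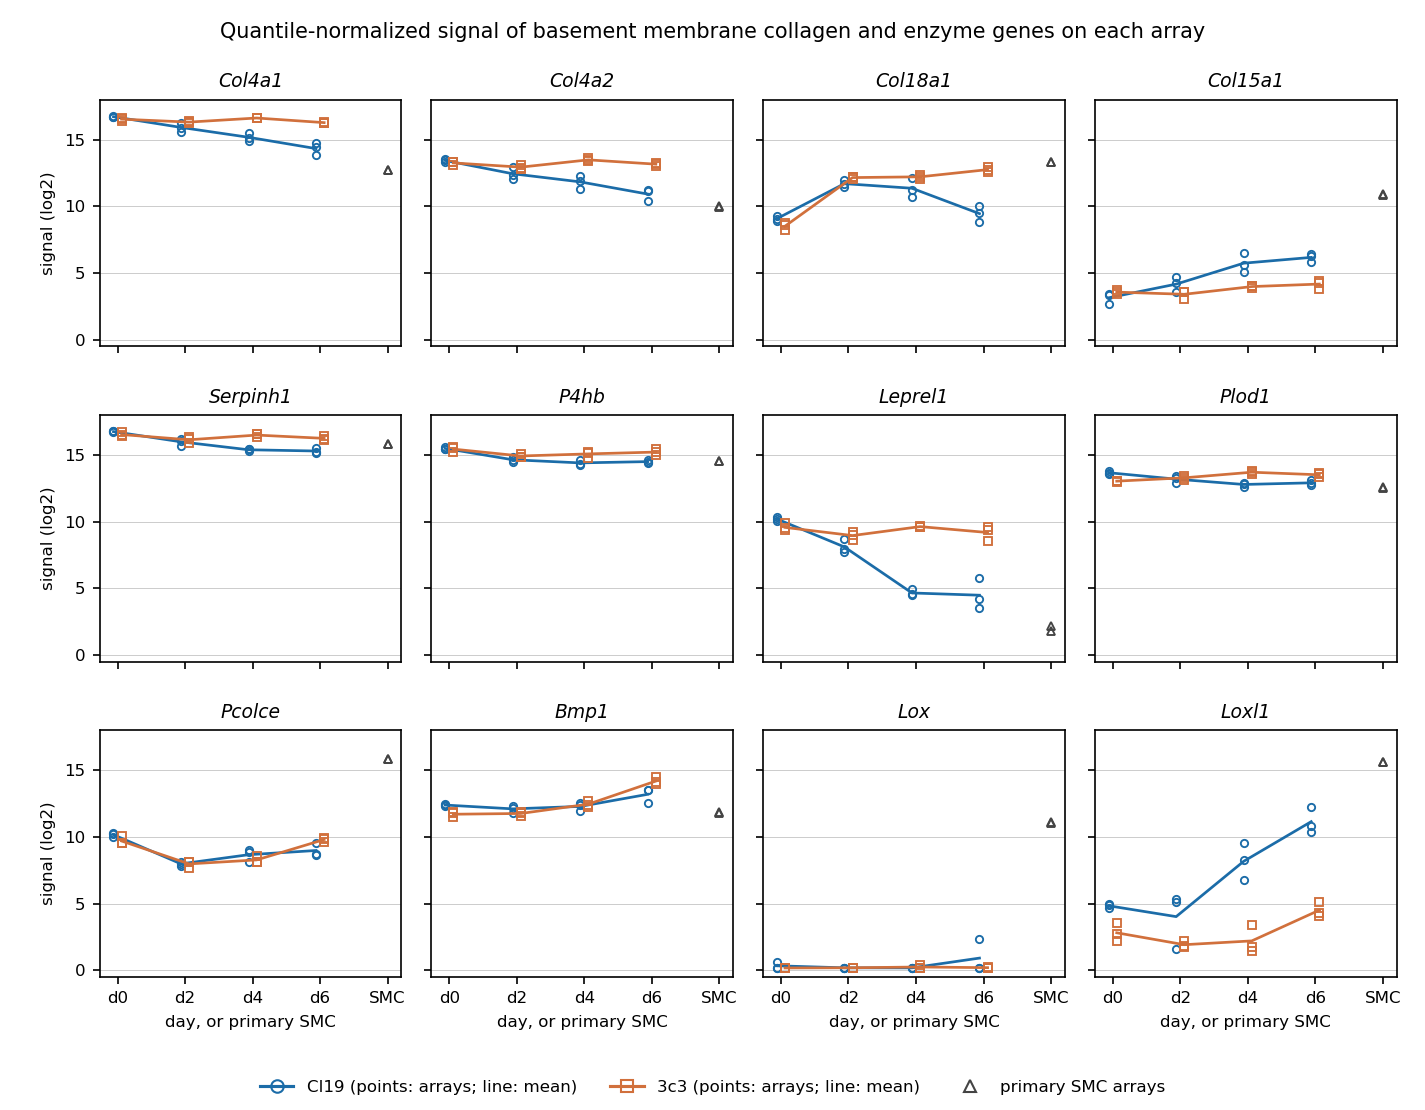
Log2 processed signal of 4 basement membrane collagens and 8 enzymes or chaperones against day of treatment, with a point for each array of Cl19 and 3c3, lines through the means of 3 arrays, and triangles for the 2 primary SMC arrays. *Col4a1*, *Col4a2*, *Serpinh1* and *Leprel1* drop in Cl19 and stay near their d0 level in 3c3 (*Serpinh1* fell there by 0.54 with the 75th percentile scaling), *Col18a1* stays high in 3c3, and *Lox* is high in primary SMCs.

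The order of events differed among the members. On d2, 10 members were already higher in Cl19 (11.2% of all tested probes) and 10 lower (11.5%), and 5 were higher (9.80%) and 5 lower (9.27%) in 3c3. Without Cl19 d2 replicate 1, 11 were higher and 10 lower in Cl19, and with normexp 5 were higher and 10 lower there. In 3c3 the table of the authors gave 6 higher and 2 lower. Normexp and the fit without the slide of replicate 3 each gave 3 higher and 3 lower in 3c3. Leaving out any 1 array gave 3 to 5 higher and 2 to 6 lower in that line. Higher in both lines by d2 were *Col23a1*, *Col18a1*, *Col5a1*, *Col7a1* and *Loxl3*, of which *Col7a1* and *Loxl3* did not pass with normexp in either line. In 3c3 *Col7a1* had an adjusted p of 0.051 to 0.15 without any 1 of 21 arrays, and *Loxl3* of 0.051 and 0.065 without d0 replicate 3 or 1. Without the slide of 3c3 replicate 3 neither passed there. *Col5a1* rose by 2.05 (adjusted p = 7.9e-06) in Cl19, 2.38 (adjusted p = 3.8e-07) without replicate 1, and by 2.54 (adjusted p = 7.1e-07) in 3c3. Lower in both lines were *Col5a3*, *Pcolce*, *Col4a3* and *P4hb*, of which *Col4a3* did not pass in either line with the authors' table, nor in 3c3 without d0 replicate 1 or d2 replicate 2. *Col5a3* fell by 3.08 (adjusted p = 0.00011) in Cl19 and 2.55 (adjusted p = 0.00082) in 3c3. *Pcolce* fell by 2.19 (adjusted p = 2.1e-06) in Cl19, -2.27 (adjusted p = 5.4e-06) without replicate 1, and by 1.72 (adjusted p = 4.2e-05) in 3c3. *P4hb* was at -0.85 (adjusted p = 0.00073) in Cl19, -0.94 (adjusted p = 0.0006) without replicate 1, and at -0.52 (adjusted p = 0.03) in 3c3, where leaving out any 1 of 4 arrays, replicates 1 and 2 of d2 or 2 and 3 of d0, gave 0.086 to 0.12. In Cl19 *Leprel1* was at -2.10 (adjusted p = 0.00067), or -2.40 (adjusted p = 0.00036) without replicate 1. *Serpinh1* was at -0.77 (adjusted p = 0.00068) there, or -0.88 (adjusted p = 0.00031) without it. *Col1a1* was not past the threshold on d2 with all Cl19 arrays, at 1.52 (adjusted p = 0.067), and rose by 2.25 (adjusted p = 0.0048) without replicate 1. *Col16a1* likewise went from 1.12 (adjusted p = 0.25) to 2.20 (adjusted p = 0.0023), and *Col5a3* from -3.08 to -3.98 (adjusted p = 1.5e-08).

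By d4, Cl19 had 13 members higher than on d0 (20.2%) and 11 lower (27.1%), while 3c3 had 10 higher (14.8%) and 4 lower (22.2%). *Col1a1* had then risen in Cl19 by 5.88 (adjusted p = 1.3e-07), 58.7-fold, while the 3c3 change was 1.06 (adjusted p = 0.16). *Leprel1* had fallen by 5.56 (adjusted p = 2.2e-09) in Cl19. In 3c3, *Loxl2* and *Plod2* were higher on d4. *Loxl2* read 9.49, 10.20 and 10.30 on d0, 11.79, 13.15 and 12.23 on d4 and 10.17, 11.54 and 11.35 on d6, a d4 change of 2.39 (adjusted p = 0.00095). Its step from d4 to d6 was -1.37 (adjusted p = 0.088, and 0.029 with the slide as a block). *Plod2* read 6.80, 6.96 and 6.62 on d0, 8.77, 10.06 and 8.73 on d4 and 5.95, 8.0 and 7.06 on d6, a d4 change of 2.40 (adjusted p = 0.0064). Its step from d4 to d6 was -2.18 (adjusted p = 0.035), with an adjusted p of 0.076 to 0.14 without any 1 of 3 arrays, 3c3 d4 replicate 2 and d6 replicates 1 and 3. For both genes all d4 arrays of 3c3 lay above all its d0 and d6 arrays.

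Between d2 and d4, 13 members changed in Cl19 (20.6% of all tested probes) and 5 in 3c3 (8.71%). The 3c3 count was 11 with the slide as a block, 2 without the slide of replicate 3, and 3 to 7 without any 1 array. Without Cl19 d2 replicate 1 the Cl19 count was 5 higher and 3 lower, in place of 7 and 6. *Col1a1* rose by 4.36 (adjusted p = 4.6e-05) in this step in Cl19, or 3.63 (adjusted p = 0.0003) without that array. *Leprel1* fell by 3.46 (adjusted p = 1.1e-05), or -3.16 (adjusted p = 0.00012) without it. *Col16a1* rose by 3.85 (adjusted p = 0.0016) in 3c3, or 3.63 (adjusted p = 0.057) without the slide of replicate 3. Between d4 and d6, 8 members changed in Cl19 (6.95%) and 7 in 3c3 (10.5%). Without any 1 array the counts were 3 to 10 in each line. Cl19 gave 12 with the slide as a block and 3 when fitted alone. For 3c3 the count was 13 with the slide as a block and 3 without the slide of replicate 3. *Col18a1* fell back by 1.91 (adjusted p = 0.00051) and *Col7a1* rose by 2.85 (adjusted p = 0.0017) in Cl19. In 3c3 *Bmp1* rose by 1.73 (adjusted p = 0.0002), *Pcolce* by 1.53 (adjusted p = 0.00082) and *Col5a1* by 1.33 (adjusted p = 0.0027).

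Few members differed between the lines on d0, and more did in their change by d6. On d0, 2 members were higher in Cl19 than in 3c3 (2.00% of all tested probes), *Col5a1* by 1.06 (SE 0.255, adjusted p = 0.022) and *Plod1* by 0.63 (SE 0.143, adjusted p = 0.015). By limma 0 were lower (1.08%); at an unadjusted p under 0.05, 6 were higher and 2 lower. Neither call was past the threshold without any 1 of 5 of the d0 arrays, with adjusted p up to 0.12 for *Col5a1* and 0.1 for *Plod1*. The d6 change then differed between the lines for 21 members (17.4%), with 10 higher in Cl19, 9 of them collagens, and 11 lower, 7 of them enzymes or chaperones. The share of 17.4% covers both directions, and none was taken for each direction, so nothing is read from this split. The median line difference was 0.467 over the members and 0.045 over all tested probes. On the Cl19 side stood *Col1a1*, *Col2a1*, *Col5a2*, *Col7a1*, *Col8a2*, *Col15a1* and *Loxl1*, and on the 3c3 side *Col18a1*, *Leprel1*, *Col4a1*, *Col4a2*, *Plod1*, *Plod3*, *Serpinh1* and *Bmp1*. Each of those differences passed the test with all 3 other scalings.

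**Figure D3:**
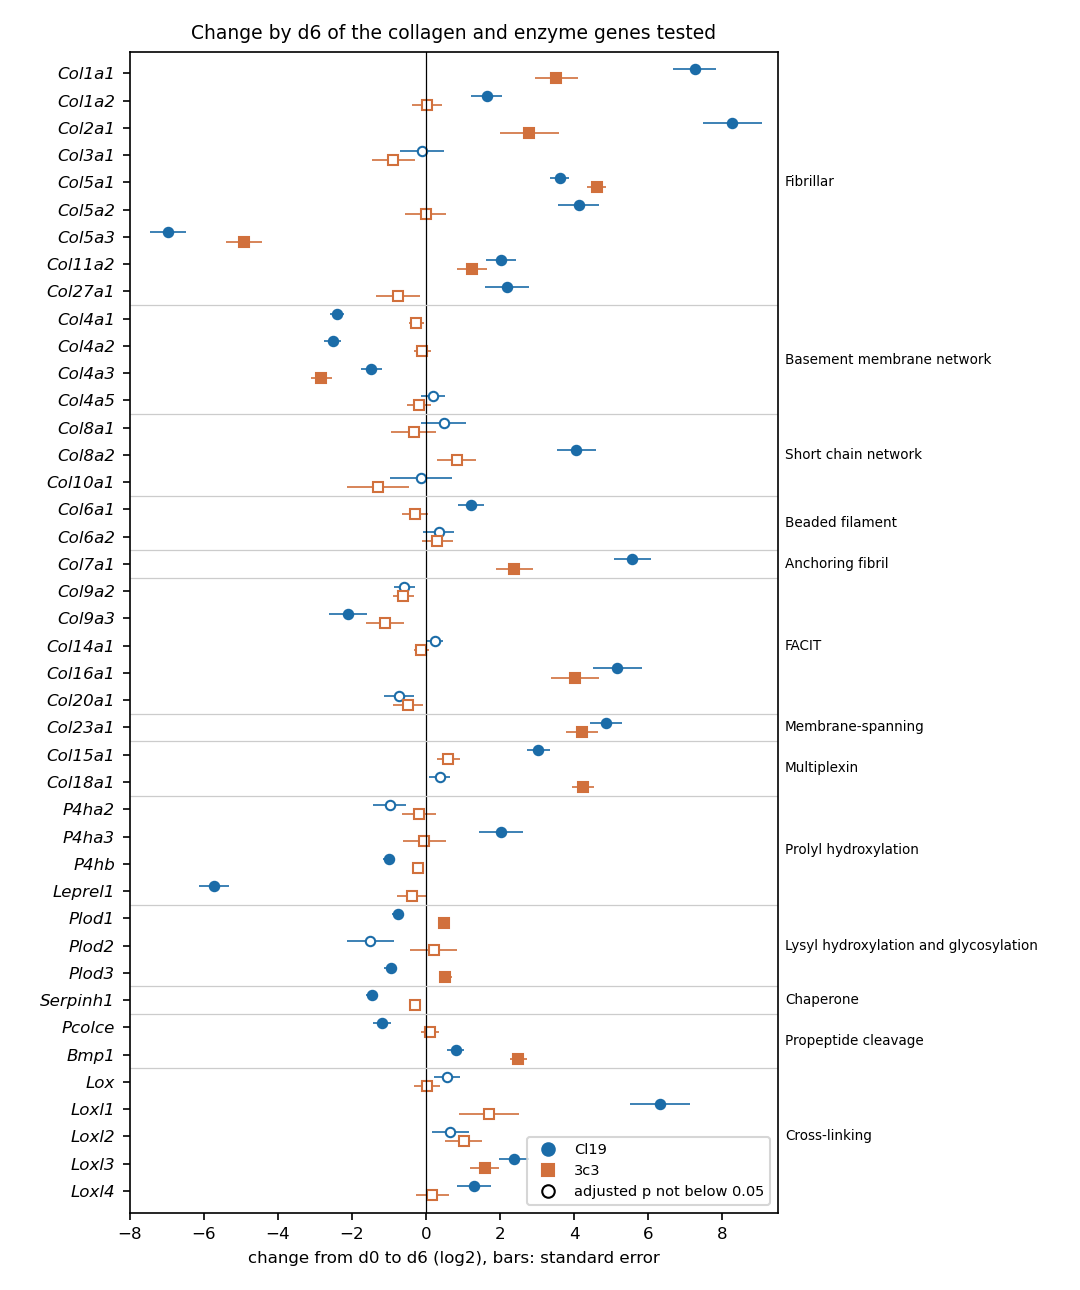
Log2 change from d0 to d6 of the 42 tested collagens and enzymes, grouped by role, for Cl19 and 3c3, with points for the estimate from 3 arrays a day, bars for its standard error, and filled points where the adjusted p was below 0.05. *Leprel1*, *Col18a1*, *Col2a1* and *Loxl1* lie far apart between the lines, and the *Col23a1* points of the lines lie close together.

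Some collagens had far higher signal in primary SMCs than in the rMAPC lines on d6, and others had lower signal. Against Cl19 d6, 22 members were higher in primary SMCs (32.8% of all tested probes) and 14 lower (38.6%). Against 3c3 d6, 21 were higher (33.4%) and 16 lower (38.1%). Among the higher ones, *Col3a1*, *Col6a1*, *Col8a1*, *Col10a1*, *Col14a1*, *Col20a1*, *P4ha3* and *Lox* were tested only because both primary SMC arrays measured them, so they could enter on that side alone. Counts of higher members, here and against d0, include these genes, so no excess of higher members is read from them. With these genes included, the median difference of the members was 1.575 and 1.054, against -0.13 and -0.126 over all tested probes. As the filter set the direction of these genes, no excess is read from those medians. These splits depend on the scaling: the authors' table gave 17 higher and 20 lower against Cl19 d6 and 16 and 20 against 3c3 d6, and the 75th percentile scaling gave 24 higher and 10 lower against 3c3 d6. Against d0 the counts were 22 higher (31.2%) and 13 lower (41.5%) for Cl19 and 21 higher (31.5%) and 13 lower (41.6%) for 3c3. With the 75th percentile scaling those were 26 and 8 for Cl19 and 23 and 8 for 3c3, and the authors' table gave 18 and 17 for 3c3. The primary SMC arrays share no slide with rMAPC arrays, so no value within a slide can be had.

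*Col3a1*, *Col1a2*, *Col5a2*, *Col6a1* and *Col8a1* set the primary cells apart. *Col3a1* read 15.20 and 15.14 there, at least 9170-fold above Cl19 d6 and at least 5190-fold above 3c3 d6. *Col1a2* read 15.03 and 15.25, which was 1440-fold above Cl19 d6 and at least 3950-fold above 3c3 d6. *Col5a2* read 13.94 and 13.95, 678-fold above Cl19 d6 and at least 2220-fold above 3c3 d6. On d6 these genes were far below primary SMCs in both lines, with *Col1a2* and *Col5a2* measured on all 3 Cl19 arrays and *Col3a1* on none. *Col6a1* read 12.83 and 12.79 in primary SMCs, at least 1500-fold and 1010-fold above the lines on d6. *Col8a1*, a short-chain collagen made by injured and growing vessels, read 13.10 and 13.05, against 1.55, 2.53 and 1.78 in Cl19 and 0.51, 1.62 and 1.15 in 3c3 on d6, at least 1780-fold and 1220-fold higher. The d6 arrays of both lines lay far below the primary SMC arrays for each.

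The type I and type V chains that rose in both lines differed from primary SMCs to unlike degrees. *Col1a1* read 16.03 and 15.95 there, above Cl19 d6 by 2.73 (adjusted p = 0.00095), 6.62-fold, and above 3c3 d6 by 6.46 (adjusted p = 3e-08), 87.8-fold. *Col5a1* read 13.62 and 13.66, above Cl19 d6 by 0.59 (adjusted p = 0.07) and above 3c3 d6 by 0.65 (adjusted p = 0.048, and 0.05 to 0.14 without any 1 of 16 arrays). In the authors' table *Col5a1* was lower in primary SMCs, by -0.99 and -0.93. *Col5a3*, which fell in both lines, read 7.47 on both primary SMC arrays, at least 35-fold above Cl19 d6 and 4.78-fold above 3c3 d6, where the authors' table gave -0.04 (adjusted p = 0.95).

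Enzymes that act outside the cell were split, with *Lox*, *Loxl1*, *Loxl3* and *Pcolce* higher in primary SMCs, *Bmp1* and *Loxl4* lower, and *Loxl2* past the threshold against neither line (lower against both in the authors' table, by -1.82 and -2.16). *Bmp1* was lower than Cl19 d6 by a log2 difference of -1.38 (adjusted p = 8.2e-05) and than 3c3 d6 by -2.37 (adjusted p = 8.1e-08). *Loxl4* was at least 3.70-fold (adjusted p = 0.00012) and 1.79-fold (adjusted p = 0.0094) lower, and the latter was not past the threshold with the 75th percentile scaling (adjusted p = 0.066), with normexp (adjusted p = 0.12) or without the first primary SMC array (adjusted p = 0.36). *Lox* read 11.07 and 11.10, at least 469-fold above Cl19 d6 and 306-fold above 3c3 d6. *Loxl1* read 15.62 and 15.61, 22.0-fold above Cl19 d6 and 2210-fold above 3c3 d6. *Pcolce* read 15.87 on both arrays, 118-fold and 66.8-fold above the lines. The prolyl hydroxylase subunit *P4ha3*, which acts inside the cell, read 13.65 and 13.62, at least 1120-fold and 1800-fold above the lines. For *Lox*, *Loxl1*, *Pcolce* and *P4ha3* the primary SMC arrays lay above all rMAPC arrays.

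*P4hb* and *Serpinh1* differed little from d6. *P4hb* read 14.54 and 14.55, with a difference of 0.03 (adjusted p = 0.89) from Cl19 d6 and -0.69 (adjusted p = 0.0022) from 3c3 d6. *Serpinh1* read 15.87 and 15.86, with 0.55 (adjusted p = 0.0053) and -0.39 (adjusted p = 0.039). The sign of these small differences depends on the scaling: against 3c3 d6 the 75th percentile gave 0.42 (adjusted p = 0.072) for *P4hb* and 1.15 (adjusted p = 8.5e-05) for *Serpinh1*, and against Cl19 d6 the authors' table gave -1.26 (adjusted p = 3.7e-06) and -0.31 (adjusted p = 0.1). Leaving out any 1 of 4 arrays, each primary SMC array or 3c3 d6 replicate 1 or 3, gave adjusted p of 0.056 to 0.13 for *Serpinh1* against 3c3 d6.

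Some collagens that rose in the rMAPC lines had low signal in primary SMCs. *Col7a1* read 0.31 and 0.28 there, at least 24.6-fold below Cl19 d6 and 3.13-fold below 3c3 d6. *Col23a1* read 2.49 and 2.55, at least 7.81-fold and 5.21-fold below. *Col2a1* read 3.75 and 0.54, at least 45.5-fold below Cl19 d6 and 2.91-fold below 3c3 d6, and the latter had an adjusted p of 0.18 without the second primary SMC array. On these probes all were below the measured range on both primary SMC arrays, while the second *Col23a1* probe was well above background on 1 of them. *Col2a1*, *Col23a1* and *Col8a2* were tested only through treated rMAPC groups, so against d6 they could enter as lower in primary SMCs alone. With normexp the adjusted p against 3c3 d6 was 0.055 for *Col7a1* and 0.16 for *Col2a1*. *Col4a1* read 12.73 and 12.75, below Cl19 d6 by a log2 difference of -1.60 and below 3c3 d6 by -3.55, and *Leprel1* was below the measured range at 1.81 and 2.18.

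**Figure D4:**
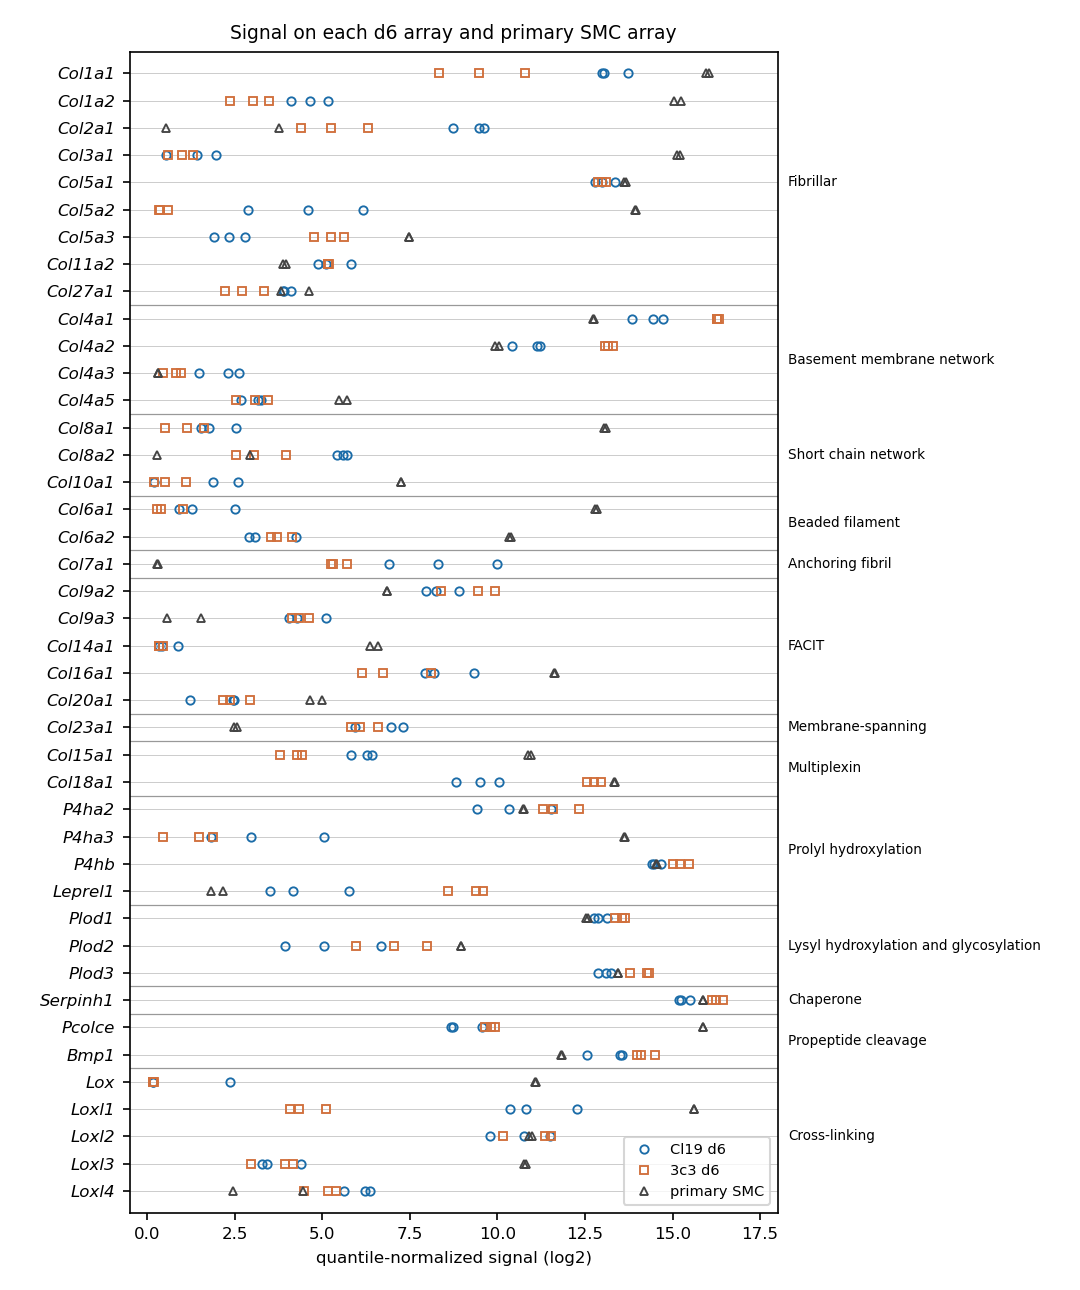
Log2 processed signal of collagens and enzymes on each d6 array of Cl19 and 3c3 and on both primary SMC arrays, 1 point per array. *Col3a1*, *Col1a2*, *Col5a2*, *Col6a1*, *Col8a1*, *P4ha3* and *Lox* separate primary SMCs from both lines, and *Col7a1*, *Col23a1* and *Leprel1* lie lower in primary SMCs; with normexp *Col7a1* against 3c3 d6 and *Leprel1* against Cl19 d6 have an adjusted p of 0.055 and 0.13.

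Position and promoter sequence were read from RefSeq tables of build GRCr8, in which all 50 members were matched, 2 of them by an older symbol. There were 4 pairs of members with no other protein-coding gene between them: *Col4a1* and *Col4a2* on chromosome 16, *Col6a1* and *Col6a2* on chromosome 20, *Col3a1* and *Col5a2* on chromosome 9, and *Col4a3* and *Col4a4* also on chromosome 9. *Col4a1* and *Col4a2* start back to back and fell together in Cl19, so the stretch between their starts is printed, on the plus strand, which is the strand of *Col4a1* (chr16:84885521-84885596, 76 bases). *Serpinh1* and *P4hb* also fell together in Cl19, and the 250 bases before the start of the transcript in the promoter table are printed for each on the minus strand, which is their own (chr1:163062977-163063226 and chr10:106346912-106347161). Capitals mark GGGCGG on either strand in the first sequence, the letters of a GC box. In the other sequences they mark CCAAT, the letters of the CCAAT box, and CCACG, the second part of the endoplasmic reticulum stress element, on either strand.
Col4a1-Col4a2: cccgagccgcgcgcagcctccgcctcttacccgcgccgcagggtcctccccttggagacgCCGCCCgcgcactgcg
Serpinh1: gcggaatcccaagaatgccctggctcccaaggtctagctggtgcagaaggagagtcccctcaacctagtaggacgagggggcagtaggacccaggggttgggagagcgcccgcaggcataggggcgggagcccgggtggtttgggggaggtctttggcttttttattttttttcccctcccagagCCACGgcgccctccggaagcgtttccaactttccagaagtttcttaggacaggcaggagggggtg
P4hb: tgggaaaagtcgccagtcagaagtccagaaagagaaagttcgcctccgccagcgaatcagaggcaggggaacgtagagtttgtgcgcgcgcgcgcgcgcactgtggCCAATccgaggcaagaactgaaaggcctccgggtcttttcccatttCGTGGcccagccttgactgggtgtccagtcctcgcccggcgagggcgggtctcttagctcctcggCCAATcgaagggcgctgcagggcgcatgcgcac

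The stretch between *Col4a1* and *Col4a2* held no CCAAT and 1 GGGCGG. Before *Serpinh1* there was no CCAAT, 1 CCACG and 1 GGGCGG, and before *P4hb* there were 2 CCAAT, 1 CCACG and 1 GGGCGG. Both strands of the 250 bases before each start were read, and matches that overlap were counted. Of the 40 members in the promoter table, 10 held CCAAT, 16 CCACG, 27 GGGCGG, 16 CAGAC (the letters bound by Smad proteins) and 3 held TATAAA, the core promoter element. Over all 33469 promoters of the table the shares were 34% for CCAAT, 27.2% for CCACG, 30.5% for GGGCGG, 42.9% for CAGAC and 12.9% for TATAAA. *Col1a1*, *Col2a1*, *Col3a1*, *Col6a2*, *Col9a3*, *Col14a1*, *Col22a1*, *Bmp1*, *Lox* and *Loxl2* were not in it. A match describes letters and is no evidence of binding.

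Other genes of collagen making and handling, outside the rule, were read from a list of 68, of which 54 were on the array and 47 tested. By d6, 14 of them rose (22.0% of all tested probes did) and 19 fell (30.3%) in Cl19, and 8 rose (19.7%) and 10 fell (28.6%) in 3c3, and these shares also stand beside the counts by list below. Among 10 tested genes of modification and folding, 5 fell in Cl19, while 1 rose and 2 fell in 3c3. *Crtap* and *Lepre1*, partners in the prolyl 3-hydroxylation complex of fibrillar chains, fell by 2.56 (adjusted p = 3.2e-10) and 1.86 (adjusted p = 1.5e-08) in Cl19, and by 0.47 (adjusted p = 0.023) and 0.73 (adjusted p = 0.001) in 3c3. *Glt25d1*, the older symbol of *Colgalt1*, fell by 0.93 (adjusted p = 3.3e-05) in Cl19. Of 5 genes of secretion, 1 rose and 3 fell in each line, with *Sec24d*, a coat protein of the vesicles that carry procollagen, at -2.37 (adjusted p = 3.8e-08) and -1.18 (adjusted p = 0.00022).

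Proteases of the propeptides went different ways: of 3 tested, 2 rose and 1 fell in Cl19, and 1 rose and 1 fell in 3c3. *Adamts3* rose by 3.29 (adjusted p = 1.2e-08) in Cl19 and 2.58 (adjusted p = 4.9e-07) in 3c3, and *Adamts2* fell by 0.82 (adjusted p = 4e-05) and 1.87 (adjusted p = 2.5e-09). Of 8 fibril-binding proteins, 3 rose and 3 fell in Cl19 and 1 rose in 3c3. Fibronectin, *Fn1*, rose by 6.28 (adjusted p = 1.9e-09) in Cl19 and 4.16 (adjusted p = 6.6e-07) in 3c3, and *Lum*, the proteoglycan lumican, rose in Cl19 (adjusted p = 6e-10) from d0 arrays at background, so no size is given. Of 7 receptors, 4 rose and 1 fell in Cl19, and 2 rose and 1 fell in 3c3. *Itga2*, the integrin chain that binds collagen on epithelia, fell to background on the d6 arrays of Cl19 (adjusted p = 1.5e-09), and in 3c3 by 2.44 (adjusted p = 0.00072). *Itga11*, the corresponding chain of mesenchymal cells, rose in Cl19 (adjusted p = 4.8e-05), again from d0 arrays at background.

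Of 6 genes of degradation and its inhibitors, 3 rose and 2 fell in Cl19, and 1 rose and 1 fell in 3c3. The falls were of the inhibitors *Timp1* and *Timp2* in Cl19 and of *Timp1* in 3c3, and the inhibitor *Timp3* was among the rises in Cl19. *Mmp14*, a membrane-bound collagenase, rose by 4.56 (adjusted p = 6.1e-08) and 2.79 (adjusted p = 3.7e-05). Of 2 genes of proline supply, 1 fell in each line, *Pepd* in Cl19 and *Pycr1* in 3c3. Of 6 regulators, 1 rose and 3 fell in Cl19, and 1 rose and 1 fell in 3c3. *Zeb1*, a transcriptional repressor, fell by 2.93 (adjusted p = 9.1e-09) in Cl19, and in 3c3 (adjusted p = 4e-08) to a level measured on 2 of 3 d6 arrays, and *Creb3l1*, an activator of collagen secretion genes, fell by 3.65 (adjusted p = 2.1e-07) in Cl19. Primary SMCs were higher than Cl19 d6 for 31 of the 47 genes (32.8% of all tested probes) and lower for 9 (38.6%), and higher than 3c3 d6 for 28 (33.4%) and lower for 8 (38.1%). *Postn* and *Ddr2* were tested only because both primary SMC arrays measured them, so they could enter as higher alone. *Tll1*, *Itga10* and *Mmp13* were tested only through treated rMAPC groups and could enter as lower alone. These counts are for the reported scaling only, and no excess is read from them.

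Markers of cell types moved in the same samples, from lists of 58 genes, of which 55 were on the array and 50 tested. The summed signal of a list weighs its probes by their own brightness, so it is set only beside the same list in other samples, and the gene with the largest share of it says nothing of relative abundance. Of all tested probes, 22.0% rose and 30.3% fell in Cl19 by d6, and 19.7% and 28.6% in 3c3. Of 9 smooth muscle markers tested, 5 rose in Cl19, and 6 rose and 1 fell in 3c3. Their summed signal went from 1870 to 2260 on d0 to 61200 to 73100 on d6 in Cl19 and from 1490 to 1720 to 29100 to 46100 in 3c3, against 98400 to 101000 in primary SMCs, with most signal from *Tagln* from d2 on. *Myh11*, the defining myosin, had no probe. Parietal endoderm markers, from the cells that make the thick basement membrane of the rodent yolk sac, moved with *Col4a1*, *Col4a2* and *Leprel1*: of 6 tested, 1 rose and 5 fell in Cl19 and 1 fell in 3c3. Their sum went from 198000 to 219000 to 44100 to 55400 in Cl19 and from 176000 to 198000 to 131000 to 179000 in 3c3, with most signal from *Sparc*, against 77200 to 78000 in primary SMCs. The laminin chain *Lama1* fell by 6.79 (adjusted p = 3e-09) in Cl19, and its 3c3 change was -0.97 (adjusted p = 0.13). Their part in the result was not tested.

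Primitive endoderm markers, expressed by undifferentiated rMAPCs, had 1 rise and 5 falls among 6 tested in Cl19 and 1 rise and 3 falls in 3c3. Their sum went from 39300 to 42400 to 17100 to 26400 in Cl19 and from 40400 to 44800 to 32500 to 34500 in 3c3, with the largest share from *Foxa2* on d6, and was 1240 to 1270 in primary SMCs. Visceral endoderm markers had 4 rises and 2 falls in each line, with *Afp* up in Cl19 (adjusted p = 1.3e-06), where 2 of 3 d0 arrays measured it, and by 6.74 (adjusted p = 4.1e-06) in 3c3. Their sum was 36700 to 42900 on d0 and 11200 to 32600 on d6 in Cl19, 32200 to 56700 and 21300 to 34100 in 3c3, and 69.3 to 73.2 in primary SMCs. Most of the d0 sum came from *Amn*, which fell by 3.40 in Cl19 and 1.61 in 3c3, and *Cubn* was the other fall. The other rises in both lines were *Ttr*, by 6.83 and 7.89, *Apoa1* and *Apob*, so the sum does not follow most of the list. Chondrocyte markers, which share tissue with *Col2a1* and *Col11a2*, had 1 rise of 5 tested in each line, *Comp*, by 2.08 (adjusted p = 2.8e-08) and 1.94 (adjusted p = 1.2e-07). Their sum went from 314 to 426 to 1180 to 1780 in Cl19 and from 610 to 712 to 1980 to 2500 in 3c3, and was 2270 to 2320 in primary SMCs, where *Acan* gave most of it. Whether these cell types account for any collagen change was not tested.

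Adventitial fibroblast markers, of cells that also make fibrillar collagen, had 2 rises and 3 falls of 5 tested in Cl19 and 1 rise and 1 fall in 3c3. Their sum went from 40800 to 48700 to 1650 to 2300 in Cl19 and from 27300 to 35400 to 24500 to 29100 in 3c3, and was 12800 to 13000 in primary SMCs, with most signal from *Mfap5* on d0. The list includes *Dcn* and *Lum*, which are also among the fibril-binding proteins above. No endothelial marker of the 8 on the array was measured on both arrays of primary SMCs, where the sum was 38.6 to 43.3. This list had 3 falls of 6 tested in Cl19 and 1 rise and 1 fall in 3c3. Leukocyte markers had 1 rise and 2 falls of 6 in Cl19 and 2 rises in 3c3, with a sum of 222 to 294 on d0 and 218 to 274 on d6 in Cl19, 247 to 293 and 919 to 2110 in 3c3, and 1630 to 1640 in primary SMCs. Of these 6, 3 were higher and 2 lower in primary SMCs than in Cl19 d6, and 3 higher and 3 lower than in 3c3 d6. Their part in the collagen signals was not tested.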

How the data were processed

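The authors scanned 1 array per sample and deposited intensity files made with Agilent Feature Extraction 10.1.1.1, whose processed signal is background-subtracted and detrended. They also deposited a table of log2 values, which equals log2 of that processed signal (largest difference 5.15e-14) without normalization between arrays. Here log2 processed signals of 43379 gene features were quantile normalized over 26 arrays, features marked non-uniform or as population outliers were dropped, and features of a probe averaged, giving 41012 gene probes. Probes well above background on each array of at least 1 group were kept, 24442 in all. A single limma fit (limma 3.58.1, R 4.3.3) over 9 groups was used, p-values were adjusted by Benjamini and Hochberg, and 0.05 was the threshold. Array annotation is of build rn4; sequences are of RefSeq, GRCr8.

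Alternatives were scaling by the 75th percentile, normexp with an offset of 50, the authors' table, the slide of a replicate as a block, a floor at the lowest signal well above background, and leaving out arrays. Correlations of residuals within a slide were over 0.1 in 16 of 18 pairs in Cl19 (0.0608 to 0.491) and 18 of 18 in 3c3 (0.204 to 0.745). The blocked value is therefore given where it changes the call of a gene's d6 change. Among counts, the block gave 12 members higher on d2 in Cl19, 16 changed there between d2 and d4 and 12 between d4 and d6. It also gave 23 changed over time in 3c3 and 3 higher in Cl19 on d0.

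Members and lists were chosen with earlier results of these data known. The genes named by rule were *Col1a1*, *Col1a2*, *Col3a1*, *Col4a1*, *Col4a2*, *Lox*, *Serpinh1* and *P4hb*, the largest changes shared by both lines (up to 6 rises and 6 falls), the 5 largest line differences and the 5 largest differences of primary SMCs. Other members described were chosen after their values were seen.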

Additional observations from a re-analysis of the deposited data

Results flagged for a closer look

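The d6 change differed between Cl19 and 3c3 by the limma test for 21 members, given here as log2 change in Cl19 minus that in 3c3. Larger in Cl19 were *Col2a1* 5.48, *Loxl1* 4.62, *Col5a2* 4.13, *Col1a1* 3.74, *Col8a2* 3.23, *Col7a1* 3.19, *Col27a1* 2.94, *Col15a1* 2.43, *Col6a1* 1.52 and *Col4a3* 1.35. Smaller in Cl19 were *Leprel1* -5.34, *Col18a1* -3.87, *Col4a2* -2.43, *Col4a1* -2.14, *Col5a3* -2.04, *Bmp1* -1.69, *Plod3* -1.48, *Pcolce* -1.29, *Plod1* -1.24, *Serpinh1* -1.16 and *P4hb* -0.76. Those of *Col5a3*, *Col4a3*, *Col6a1*, *Col27a1*, *P4hb* and *Pcolce* were lost under other scalings or without some arrays. That of *Col5a2* did not pass with the floor (adjusted p = 0.14). Sizes for *Col2a1*, *Col5a2*, *Col8a2* and *Col6a1* are not exact, as d0 was at background in both lines. The cause was not tested, and each line is a single clone, from a donor of another age, scanned on its own day.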

How the results depend on the processing

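With 3 arrays per group, 2 for primary SMCs, small changes can be missed, and line, donor age and scan day cannot be told apart for levels. Of 1117 counts under alternatives, 1065 stayed within 1.5-fold and 52 moved. Of 3036 gene values, 2928 were labelled the same, 70 weaker, 29 stronger and 9 reversed. A value labelled the same need not have kept its size. With normexp the Cl19 d6 change of *Col5a2* went from 4.126 to 0.615 and that of *Col2a1* from 8.28 to 3.311, both labelled the same. Folds and their bounds therefore hold for the reported processing only. The cause was not tested.

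With scaling by the 75th percentile, 4 members were lower in 3c3 on d6 and 4 in both lines, and 10, 8 and 8 were lower in primary SMCs than in 3c3 d6, Cl19 d0 and 3c3 d0. After normexp background correction, 5 were higher in Cl19 on d2, and 3 higher and 3 lower in 3c3. The authors' series table gave 2 lower in 3c3 on d2 and 1 lower in both lines on d6. With no filter on dim probes 3 changed in 3c3 between d2 and d4. With the replicate block, 11 changed in 3c3 between d2 and d4 and 13 between d4 and d6. With a separate fit for each line, 3 changed in Cl19 between d4 and d6.

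Without the 4 arrays of 3c3 slide 3, 12 changed over time in 3c3 and 11 in both lines, 3 were higher and 3 lower on d2, 2 changed from d2 to d4 and 3 from d4 to d6, and 0 were higher in Cl19 on d0 by limma. With the floor at the lowest signal well above background, 1 was lower in 3c3 on d6 and 1 in both lines. The methods' t-test at the methods' level gave 5 lower in 3c3 on d6. The methods' area method gave 18 over time in Cl19, 9 in 3c3 and 9 in both.

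Leaving out 1 array gave 8 to 15 for Cl19 d4 against d2, 3 to 10 for Cl19 d6 against d4, 3 to 5 higher and 2 to 6 lower for 3c3 d2 against d0, 3 to 7 for 3c3 d4 against d2, 3 to 10 for 3c3 d6 against d4, and 0 to 3 higher for d0, Cl19 against 3c3.

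Values that reversed were, for primary SMCs against mean d6, *P4hb* 0.765 and *Col4a3* 0.583 with the 75th percentile, *Serpinh1* -0.726 and *Col5a1* -0.961 in the authors' series table, and *Col4a3* 1.114 with the floor. For the line difference on d6 they were *Col5a3* 0.209 after normexp, and *Col4a3* -0.383 and *Col6a1* -0.259 with the floor. For Cl19 d6 against d0, *Col6a1* was -0.103 with the floor.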

Other observations

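By d6 in Cl19, *Serpinh1*, *P4hb*, *Plod1*, *Plod3* and *Leprel1* fell, *P4ha3* was called higher, and *P4ha2* and *Plod2* did not pass. In the same line *Col1a1*, *Col2a1*, *Col5a1*, *Col7a1* and *Col16a1* rose and *Col5a3* fell. *Leprel1*, *Col4a1* and *Col4a2* fell there, and so did 5 of 6 parietal endoderm markers in the same arrays, while *Pthlh* rose. Whether these belong to the same cells was not tested.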
